A study of Homo sapiens with 11 samples.

Results

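The 6 genes described here, SNORD3A, RN7SK, RPPH1, RMRP, RN7SL1 and RN7SL2, encode abundant structured noncoding RNAs. They were chosen by symbol, with their levels in these data already known, from a table of 58699 genes, and their levels are therefore a description. The 6 symbols hold 7 gene identifiers, because RMRP is listed under 2. Cells of HCT116, an established colorectal cancer line of human origin, received a control siRNA to luciferase (siLuc) or an siRNA to Staufen1 (siStau1), a protein that binds double-stranded RNA, and with it the solvent DMSO or decitabine (DAC), a nucleoside that inhibits DNA methylation. Decitabine was given at 500 nM for 5 days. The total RNA libraries fall into 4 groups of 2 (siLuc DMSO, siStau1 DMSO, siLuc DAC, siStau1 DAC), and the authors deposited 1 FPKM value per gene and group (fragments per kilobase of transcript, scaled to library depth). RNA labelled as bound by the J2 antibody was sequenced in 1 library for each of both DAC groups and for siLuc DMSO. All groups share the cell line and a transfected siRNA, and nothing in the labels says that the 2 libraries of a group came from separate cultures.

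U3, the RNA of SNORD3A, is a box C/D small nucleolar RNA that pairs with the precursor of ribosomal RNA and is needed for its early cuts. RPPH1 is the RNA of RNase P, which trims the leading end of transfer RNA precursors, and RMRP is the RNA of the related enzyme RNase MRP, which acts on the ribosomal RNA precursor and shares most of its proteins with RNase P. RN7SK encodes 7SK, the scaffold that holds the elongation factor P-TEFb inactive together with HEXIM proteins, and RN7SL1 and RN7SL2 encode 7SL, the RNA of the signal recognition particle, which brings nascent secretory proteins to the endoplasmic reticulum. U3 is transcribed by RNA polymerase II and the others by RNA polymerase III.

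The gene models come first because overlapping and closely related ones bear on how the values can be read. Sequences shown are from the spliced transcripts of GENCODE release 29 (GRCh38), 5′ to 3′, written as DNA. RN7SL1 (ENSG00000276168.1, chromosome 14, 49586580 to 49586878, plus strand) is 299 bases long. AL139099.4, a 300-base transcript on the same strand, holds the whole of RN7SL1. RN7SL2 (ENSG00000274012.1, chromosome 14, 49862550 to 49862849, minus strand) is 300 bases long.

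RMRP is listed as a ribozyme of 264 bases (ENSG00000277027.1, chromosome 9, 35657754 to 35658017, minus strand) and as a lincRNA of 268 bases (ENSG00000269900.3, 35657751 to 35658018). The shorter sequence lies whole inside the longer one, which is shown with the 4 additional bases in capitals. RPPH1 (ENSG00000277209.1, chromosome 14, 20343075 to 20343407, minus strand) has 333 bases, of which bases 101 to 200 are shown, and the longest run of letters that it shares with RMRP, 9 bases, is in capitals. The annotation also has AL355075.4, a 638-base transcript on the same strand that holds the whole of RPPH1.
RMRP: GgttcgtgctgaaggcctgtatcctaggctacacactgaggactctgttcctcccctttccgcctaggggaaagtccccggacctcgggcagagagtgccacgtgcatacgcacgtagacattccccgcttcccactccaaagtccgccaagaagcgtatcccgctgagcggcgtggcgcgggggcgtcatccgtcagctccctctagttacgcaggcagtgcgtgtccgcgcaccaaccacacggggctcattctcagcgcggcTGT
RPPH1: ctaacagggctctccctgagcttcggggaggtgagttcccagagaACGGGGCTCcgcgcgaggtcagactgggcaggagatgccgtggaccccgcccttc

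RN7SK (ENSG00000283293.1, chromosome 6, 52995621 to 52995948, plus strand) has 328 bases, of which the first 100 are shown, with all 3 of its GATC motifs in capitals. A second model of the locus, RF00100, has 331 bases and holds the whole of RN7SK. SNORD3A (ENSG00000263934.4, chromosome 17, 19188016 to 19188714, plus strand) has 3 transcripts of up to 699 bases. The shortest, of 217 bases, is shown with the letters TGATGA and TCTGA in capitals. Box C and box D of C/D RNAs have the consensus forms RUGAUGA (R is A or G) and CUGA, and the motifs were searched on the strand shown. The marked TGATGA follows a T, so it does not match the R of the first form. TCTGA is longer than the second form, and a further CTGA, in ctcctgagcg, is left in lower case. At least 3 GATC matches occurred in 23.7% of the 93217 annotated transcripts of 200 to 800 bases, TGATGA in 23.3% and TCTGA in 50.9%. These matches are a description of letters.
RN7SK: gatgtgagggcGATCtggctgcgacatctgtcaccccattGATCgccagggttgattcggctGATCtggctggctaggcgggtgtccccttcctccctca
SNORD3A: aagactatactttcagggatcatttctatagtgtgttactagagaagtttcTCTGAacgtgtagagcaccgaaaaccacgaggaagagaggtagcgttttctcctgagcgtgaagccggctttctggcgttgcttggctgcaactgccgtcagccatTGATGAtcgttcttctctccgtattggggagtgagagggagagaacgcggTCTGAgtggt

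The samples were checked against markers. KRT8, KRT18, KRT19, EPCAM and CDH1, which mark epithelial cells, lay between 14.3 and 3469 FPKM in the 4 groups, while VIL1, a brush border protein, stayed at 0.198 FPKM or lower. Of the 6 markers of blood cells and fibroblasts, PTPRC, CD3E, HBB, DCN and COL1A2 were at 0.820 FPKM or lower and COL1A1 was between 0.826 and 8.60. Markers differed with DAC too: in the authors' deposited table KRT19 was called higher in both siRNA arms (537 to 1419 FPKM in siLuc, 449 to 1041 in siStau1), KRT18 higher in siStau1 (509 to 2415 FPKM) and EPCAM lower in siLuc (259 to 117 FPKM). PTPRC (0 to 0.820 FPKM) and COL1A1 (0.826 to 5.65 FPKM) were called higher in siStau1. No marker was called with the knockdown, and the part of these differences in the results on the members was not tested. STAU1, the targeted gene, had 35.5 FPKM with DMSO and 33.7 with DAC in siLuc cells, against 29.98 and 27.1 in siStau1 cells, and in the authors' deposited table its knockdown differences were not called, with q-values of 0.767 in DMSO and 0.685 in DAC. The depth of the total RNA libraries is unknown. Because the table holds no value per library, neither the spread of a level nor the certainty of the order of levels can be given.

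SNORD3A, RPPH1 and RMRP were among the most abundant genes of every group, and RN7SK of the 3 groups in which it is not listed at 0. In siLuc cells SNORD3A had 207319 FPKM with DMSO and 267692 with DAC, and in siStau1 cells 106803 and 291331. It ranked first in every group but siStau1 DMSO, where RN7SK was first, and in siLuc DAC RN7SK is listed at 0, a possible failed estimate. RPPH1 had 63301 FPKM with DMSO and 241876 with DAC in siLuc cells, and 40644 and 119360 in siStau1 cells. Both DAC groups lay above both DMSO groups, and siLuc lay above siStau1 under either treatment. RPPH1 ranked 3 in the other groups and 2 in siLuc DAC, where RN7SK, which ranked above it in each of the others, is the gene listed at 0.

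The ribozyme model of RMRP had 33880 FPKM with DMSO and 238576 with DAC in siLuc cells, and 39365 and 102833 in siStau1 cells. The lincRNA model had 15659, 50855, 7181 and 24383 FPKM in the same order, siLuc before siStau1 and DMSO before DAC, which is used for all series of 4 values here. In both models the 2 DAC groups stood above the 2 DMSO groups, and siLuc DAC was highest. Since the models cover the same bases, reads of this RNA can be assigned to either, and their sum is given too. Summed, RMRP had 49539, 289431, 46546 and 127216 FPKM. The ribozyme model held 68.4%, 82.4%, 84.6% and 80.8% of these sums.

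RN7SK was listed at 0 in siLuc DAC, and had 80918.5 FPKM in siLuc DMSO, 110208 with siStau1 and DMSO, and 202720 with siStau1 and DAC. The second model, RF00100, had 10807, 1602 and 3609 FPKM in the last 3 of these groups and was also listed at 0 in siLuc DAC. RN7SL1 was listed at 0 in siLuc DMSO, siLuc DAC and siStau1 DAC and at 419 FPKM in siStau1 DMSO. RN7SL2 was listed at 0 in the same 3 groups and at 3640 FPKM in siStau1 DMSO. All comparisons that involve a value of 0 for these 3 genes carry the status LOWDATA in the authors' deposited table, with no test, and no fold is given for them.

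**Figure D1:**
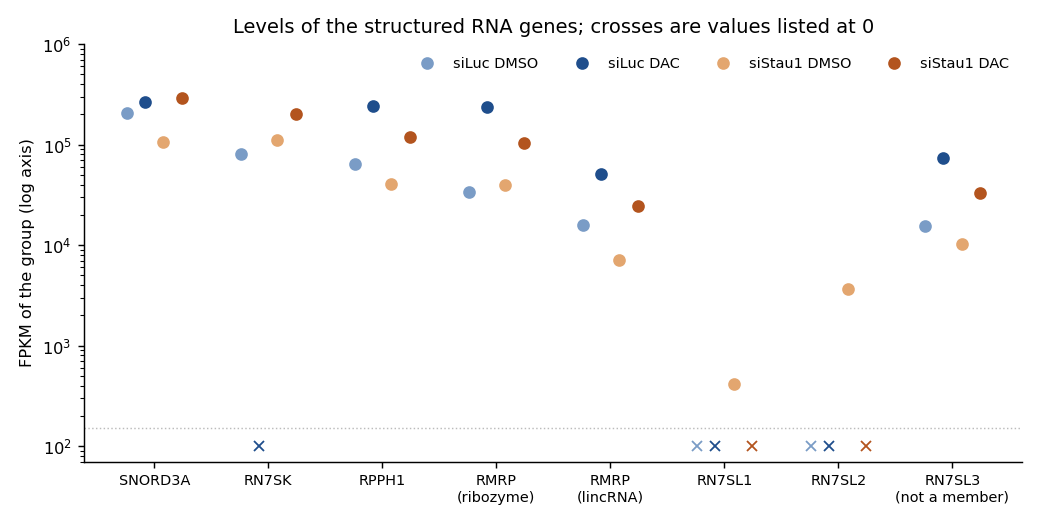
FPKM of each gene model (horizontal axis) in the 4 total RNA groups, on a log axis, each point being the authors' value over 2 libraries; crosses below the dotted line are values listed at 0 and have no height on the scale. RN7SL3 is shown beside RN7SL1 and RN7SL2, and the RN7SK value of siLuc DAC is a cross while its other 3 values are at 80918.5 FPKM or more.

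The values at 0 came by locus, not by gene. LOWDATA marked 35 genes in 6 loci, and all 35 were listed at 0 in siLuc DAC. Most of the 35 were listed at 0 in every group, so their zeros are not particular to siLuc DAC. The locus of RN7SL1 holds 8 genes, which include the ribosomal protein gene RPS29 and LRR1. RPS29, whose protein is part of the small ribosomal subunit, was listed at 0 in the same 3 groups as RN7SL1 and at 244 FPKM in siStau1 DMSO, and LRR1 was at 0 in those groups and at 11.6 FPKM in siStau1 DMSO. The locus of RN7SL2 holds 3 genes, all at 0 in those 3 groups, and the locus of RN7SK holds RN7SK and RF00100. RN7SL5P, a 7SL pseudogene, lies in a marked locus of 10 genes, at 74.8, 0, 10.7 and 21.99 FPKM. The remaining marked loci, on chromosome 21, hold RNA5-8SN2 models. A value of 0 beside an overlapping ribosomal protein gene at 0 is a possible failed estimate and is not read as absence.

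The J2 libraries give a measure of 7SK and 7SL that the choice of genes did not use. The reads were counted on annotated repeat copies, which include the copies named for 7SK, 7SL and U3 but cannot be tied to single genes. In siLuc DAC, the condition in which the total RNA table lists RN7SK, RN7SL1 and RN7SL2 at 0, 4672636 reads fell on 7SK copies and 7651224 on 7SL copies. Copies of 7SL took 10.5% of the 71473124 reads on repeats in siLuc DMSO (95% Wilson interval 10.497 to 10.512), 11.1% of 68944777 in siLuc DAC (11.090 to 11.105) and 8.76% of 83037330 in siStau1 DAC (8.752 to 8.764). Copies of 7SK took 6.57% (6.563 to 6.575), 6.78% (6.771 to 6.783) and 5.72% (5.713 to 5.723), and 1 copy held 96.1% to 96.4% of them in each library. Copies of U3 took 2.51% (2.511 to 2.518), 2.22% (2.221 to 2.228) and 2.18% (2.172 to 2.178), with 99.7% in 1 copy in each library. These intervals cover counting error only, and with 1 library per group no test was made.

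On the log2 scale and relative to each library's total on repeats, siLuc DAC over siLuc DMSO was 0.08 for 7SL and 0.05 for 7SK, and siStau1 DAC over siLuc DAC was −0.34 for 7SL and −0.25 for 7SK. The sign of the first pair depends on the total: with repeats outside Alu as the total it was −0.24 for 7SL and −0.28 for 7SK. The protocol text of the labels names a Staufen1 antibody for the enrichment where the sample labels name J2, so which antibody was used is uncertain.

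**Figure D2:**
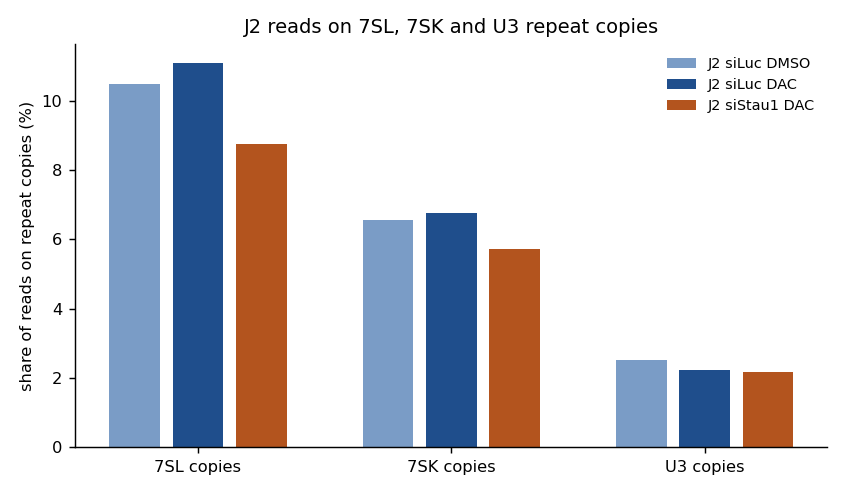
Share of all reads on repeat copies (vertical axis, percent) that fell on copies named for 7SL, 7SK and U3, in the 3 J2 libraries, 1 bar per library. All 3 kinds of copy took reads in all 3 libraries, with 7SL between 8.76% and 11.1%.

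The comparison of siLuc DAC with siLuc DMSO asks what decitabine did in control cells. SNORD3A was 1.29-fold, RPPH1 3.82-fold, and RMRP 7.04-fold (ribozyme model) and 3.25-fold (lincRNA model) of the DMSO level, and summed RMRP was 5.84-fold. Of the 7 models, 4 were tested in the authors' deposited table, all 4 were higher with DAC, and 0 were called by Cuffdiff at a q-value under 0.05, where 13.5% of 17504 tested genes were called. At an unadjusted p-value under 0.05, 1 passed, the RMRP ribozyme model, with a log2 ratio of 2.82, and p of 0.0236 and q of 0.174 by the authors' deposited table. The q-values there were 0.652 for RPPH1, 0.713 for the RMRP lincRNA model and 0.932 for SNORD3A. Of the other genes at 1 FPKM or more in both groups with a ratio as high as that of RPPH1, 58.0% of 464 were called, and of those as high as the RMRP ribozyme model, 56.6% of 83.

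The sum of FPKM over all genes differed between the groups, so the direction of a small ratio depends on the scale. The sum of siLuc DAC counts RN7SK as 0, a possible failed estimate. RN7SK held 7.17% of the sum in siLuc DMSO, 11.4% in siStau1 DMSO and 13.6% in siStau1 DAC. Scaling each group to the same sum lowers every log2 ratio by 0.67 for DAC in siLuc and by 0.62 for DAC in siStau1, and raises it by 0.22 for the knockdown in DMSO and by 0.27 in DAC, up to the effect of the pseudocount. On that scale DAC over DMSO in siLuc was −0.30 for SNORD3A, against 0.37 as deposited, 1.27 for RPPH1 and 2.15 for the RMRP ribozyme model. Centred on genes of similar GC content, the same ratios were −0.03, 0.74 and 1.76. GC content was that of each gene's longest transcript, for SNORD3A that of 699 bases, not the shown one of 217. The ratio of SNORD3A as deposited is smaller than the 0.67 that scaling takes from every gene, and the members themselves hold 59.9% of the difference in the sum, so its sign on that scale says nothing further about SNORD3A. Centred on noncoding genes of 200 to 800 bases it was 0.02. The RMRP lincRNA model went from 1.70 as deposited to 0.64 when centred by GC content. Non-member noncoding genes of 200 to 800 bases at 1 FPKM or more in both groups had a median log2 ratio of 0.35 over 235 genes, and all such genes of any kind 0.08 over 12445.

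In siStau1 cells, DAC over DMSO was 2.73-fold for SNORD3A, 1.84-fold for RN7SK, 2.94-fold for RPPH1, and 2.61-fold and 3.40-fold for the RMRP ribozyme and lincRNA models. All 5 tested models were higher with DAC, and 0 were called in the authors' deposited table, where 7.46% of 16979 tested genes were called. None reached an unadjusted p-value under 0.05 either (0 of 5), and the lowest q-value in the authors' deposited table was 0.345, for RPPH1. The log2 ratios were 1.45 for SNORD3A, 0.88 for RN7SK, 1.55 for RPPH1, and 1.39 and 1.76 for the RMRP models. Scaled to the same sum they were 0.82, 0.26, 0.93, 0.76 and 1.14, and centred on genes of similar GC content 1.08, 0.27, 0.71, 0.63 and 1.01. The median over 222 non-member noncoding genes of 200 to 800 bases was 0.32.

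The knockdown without decitabine was addressed by siStau1 DMSO over siLuc DMSO. SNORD3A stood at 0.515-fold of the control, RPPH1 at 0.642-fold and RN7SK had a log2 ratio of 0.45. The RMRP ribozyme model stood at 1.16-fold and the lincRNA model at 0.459-fold, so the 2 models of the same bases pointed in opposite directions, and their sum stood at 0.940-fold. Of the 5 tested models 2 were higher and 3 lower, and Cuffdiff called 0 of them in the authors' deposited table, where 0.799% of 15893 tested genes were called. The count at an unadjusted p-value under 0.05 was also 0, and the q-values in the authors' deposited table ran from 0.657 for SNORD3A to 0.944 for the RMRP ribozyme model. The RN7SK locus summed over both models stood at 1.22-fold.

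With decitabine present, siStau1 DAC over siLuc DAC was 1.09-fold for SNORD3A, 0.493-fold for RPPH1, and 0.431-fold and 0.479-fold for the RMRP ribozyme and lincRNA models. On the log2 scale these were 0.12, −1.02, −1.21 and −1.06, and centred on genes of similar GC content 0.44, −0.38, −0.61 and −0.46. Of the 4 tested models 1 was higher and 3 were lower, and 0 were called in the authors' deposited table, where 0.904% of 17263 tested genes were called. The count at an unadjusted p-value under 0.05 by Cuffdiff was 0, and the lowest q-value in the authors' deposited table was 0.463, for the RMRP ribozyme model. The median over 323 non-member noncoding genes of 200 to 800 bases was −0.41. The comparisons share groups with each other, so their directions are not separate observations. Whether the effect of decitabine differed between siLuc and siStau1 was not tested, as the table gives no value per library.

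In the remaining 2 comparisons of the table siRNA and treatment change together. In siStau1 DAC over siLuc DMSO, SNORD3A was 1.41-fold, RN7SK 2.51-fold, RPPH1 1.89-fold, and the RMRP models 3.04-fold (ribozyme) and 1.56-fold (lincRNA). Of these 5 tested models 0 were called in the authors' deposited table, where 4.98% of 16909 genes were called, 0 had an unadjusted p-value under 0.05 by Cuffdiff, and the lowest q-value was 0.484, for RN7SK. In siLuc DAC over siStau1 DMSO the RMRP ribozyme model, at 238576 against 39365 FPKM, was 6.06-fold higher, and the authors' deposited table gives it a q-value of 0.0418. It was the 1 member called of 4 tested, where 16.7% of 17632 genes were called, and its q-value is above the stricter limit of 0.01. The lincRNA model of the same bases was 7.08-fold higher there, at a deposited q-value of 0.791 (the authors' deposited table).

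**Figure D3:**
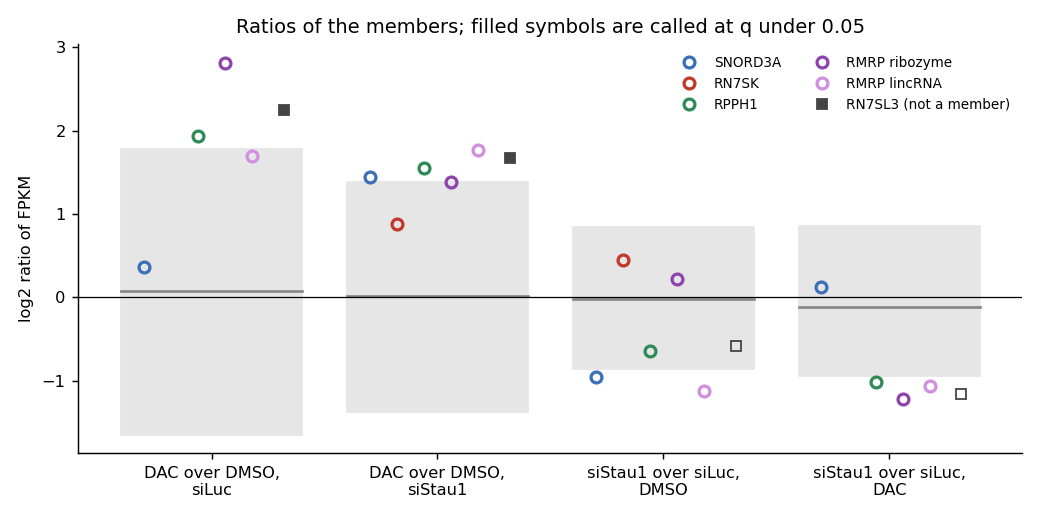
Log2 ratio of FPKM (vertical axis) of each tested gene model in the 4 comparisons (horizontal axis); grey bands span the 5th to 95th percentile of tested genes at 1 FPKM or more in both groups, with their median as a line, open symbols are not called and filled ones are called. No member is filled, and RN7SL3 is filled in both decitabine comparisons.

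Ratios between members within a group do not depend on how the groups are scaled. SNORD3A over RPPH1 was 3.28 with DMSO and 1.11 with DAC in siLuc cells, and 2.63 and 2.44 in siStau1 cells. SNORD3A over summed RMRP was 4.18, 0.925, 2.29 and 2.29 in the same order. In both ratios siLuc DAC was lowest and siLuc DMSO highest. RPPH1 over summed RMRP stayed between 0.836 and 1.28, with siLuc DAC lowest.

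The members made up a large part of all FPKM. They held 35.5% of the sum with DMSO and 44.5% with DAC in siLuc cells, and 31.9% and 49.7% in siStau1 cells. SNORD3A alone held 18.4%, 14.9%, 11.04% and 19.5%, RPPH1 5.61%, 13.5%, 4.201% and 8.01%, and RMRP 4.39%, 16.1%, 4.81% and 8.53%. RN7SK held 7.17%, 11.4% and 13.6% in the 3 groups in which it is not listed at 0. The siLuc DAC shares are of a sum that counts RN7SK as 0, a possible failed estimate. The sum of all genes was 1.59-fold higher with DAC in siLuc and 1.54-fold higher in siStau1, and without the members 1.37-fold and 1.14-fold. The members' own difference came to 59.9% of the difference in the sum in siLuc, with RN7SK at 0 in siLuc DAC, and to 82.6% in siStau1. These shares are of FPKM, which weights each gene by length, and are not shares of reads.

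**Figure D4:**
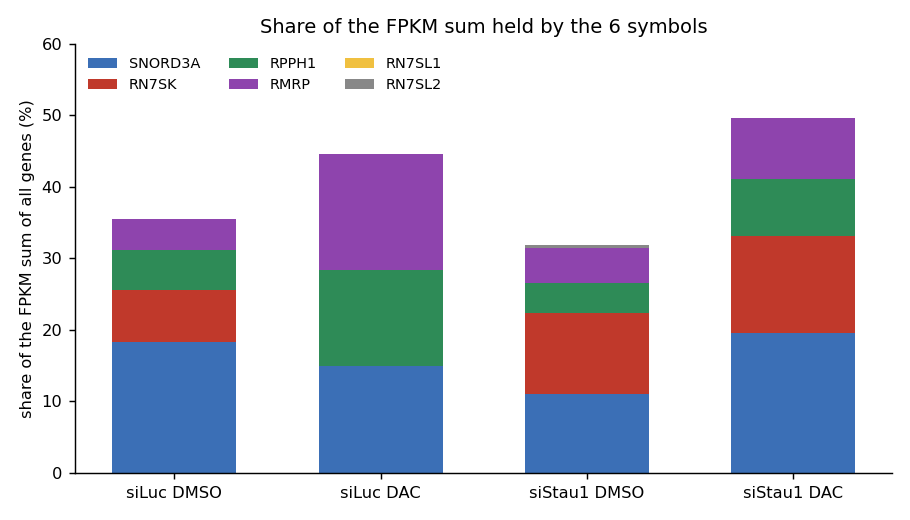
Share of the FPKM sum of all genes (vertical axis, percent) held by each of the 6 symbols, stacked, in the 4 total RNA groups; both RMRP models are added. The stacks reach 35.5%, 44.5%, 31.9% and 49.7%, and siLuc DAC has no RN7SK segment because RN7SK is listed at 0 there.

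Close copies of the members are separate genes in the table. RN7SL3, a 7SL gene that is not among the 6, had 15306, 72793, 10244 and 32602 FPKM, and was not at 0 in any group. It rose 4.76-fold with DAC in siLuc and 3.18-fold in siStau1, with q-values of 0.0234 and 0.0134 in the authors' deposited table, and was not called with the knockdown. RN7SL4P, another 7SL copy on the same list, had 1388, 2284, 602 and 1925 FPKM. With DAC it was 1.65-fold in siLuc and 3.20-fold in siStau1, and was not called (q-values of 0.731 and 0.524 in the authors' deposited table). How reads that fit RN7SL1, RN7SL2 and RN7SL3 alike were assigned is not given in the sources used here, so the values of all 3 are uncertain.

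The U3 copies SNORD3B-1, SNORD3B-2, SNORD3C and SNORD3D have transcripts of 217 bases, like the one of SNORD3A shown above. Counted from 1 at the 5′ end of SNORD3A, SNORD3B-1 and SNORD3B-2 differ from it by A78C, SNORD3C by G108A, and SNORD3D by A4G, C53T and A78C. SNORD3B-1 had 809, 2104, 522 and 1124 FPKM, and rose with DAC in siLuc and in siStau1, with q-values of 0.00293 and 0.0488 in the authors' deposited table. SNORD3C had 379, 996, 324 and 439 FPKM, rose with DAC in siLuc (q-value 0.0187 in the authors' deposited table) and was lower in siStau1 than in siLuc under DAC (q-value 0.0254 there). SNORD3B-2 had 22.2, 62.1, 9.09 and 24.04 FPKM and was lower in siStau1 under DAC, and the authors' deposited table gives a q-value of 0.0134. The 2 SNORD3D models were at or near 0 and not tested. As copies that differ by 1 to 3 bases can exchange reads, these values are uncertain too.

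Other structured RNAs were taken from a list of small nuclear, Cajal body, Y, vault and related RNAs with 42 genes in the table, 8 of them at 0 in all groups. With DAC in siLuc 9 of 33 tested were called higher and 0 lower, at a q-value under 0.05 in the authors' deposited table. Of the 33, 30 had a ratio above 0, and the median log2 ratio was 1.66 beside 0.23 for all genes tested. Over all tested genes, called in either direction, the share was 13.5% with DAC in siLuc, 7.46% with DAC in siStau1, 0.799% with the knockdown in DMSO and 0.904% with the knockdown in DAC. The 9 were RNU4-1 and RNU4-2 (U4 of the spliceosome), RNY1 (a Y RNA), SNORD17, SNORA73A and the Cajal body RNAs SCARNA2, SCARNA5, SCARNA6 and SCARNA10. SNORA73A went from 2716 to 15398 FPKM and RNU4-1 from 1898 to 7149 FPKM. In siStau1 3 of 31 were called higher, RNU6ATAC, SCARNA2 and SCARNA5, and 0 lower, a share of calls near that over all genes. Of the 31, 25 had a ratio above 0, with a median of 0.72 beside 0.11. With the knockdown in DMSO 0 were called higher and 2 of 32 lower, SCARNA2 from 1438 to 400 FPKM and RNY3 from 2813 FPKM to a listed 0. Of the 32, 15 had a ratio above 0 and 17 below 0, with a median of −0.12 beside −0.02. With the knockdown in DAC 0 were called higher and 4 of 31 lower, RNU4-1, RNU4-2, SCARNA2 and SCARNA13. Of the 31, 2 had a ratio above 0 and 29 below 0, with a median of −0.88 beside −0.14. The list was chosen with earlier results known, and its counts are a description.

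The proteins that bind the members did not share 1 direction. Of 9 genes of the 7SK particle 1 passed with DAC in siLuc, MEPCE, the enzyme that caps 7SK, which rose from 13.0 to 29.1 FPKM. Of 11 RNase P and MRP proteins, RPP25 rose from 2.50 to 9.13 FPKM and RPP30 fell from 65.2 to 16.8 FPKM with DAC in siLuc, and 0 passed in the other comparisons. Over all tested genes 13.5% were called with DAC in siLuc, so neither count is read as a result about its list. Of 8 proteins of the signal recognition particle and its receptor, SRP9 and SRP14, which bind the Alu part of 7SL as a pair, fell with DAC in both siRNA arms. In FPKM, SRP9 went from 128 to 31.7 in siLuc cells and from 186 to 75.9 in siStau1 cells, and SRP14 from 182 to 83.2 and from 351 to 114. SRP9 was also higher in siStau1 DAC than in siLuc DAC (q-value of 0.00525, the authors' deposited table). The shares called over all tested genes were 7.46% with DAC in siStau1 and 0.904% with the knockdown in DAC. With 8 genes, the calls on this list are given gene by gene as a description.

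A list of 14 genes covers the U3 particle and box C/D proteins. It also holds proteins of box H/ACA RNAs, the other class of small nucleolar RNA. Of the 14, RRP9, a U3-specific protein, rose with DAC from 41.4 to 92.1 in siLuc cells and from 27.9 to 63.4 FPKM in siStau1. IMP4 rose and MPHOSPH10, its partner in the U3 particle, fell with DAC in siLuc, from 67.2 to 158 FPKM and from 25.3 to 10.1 FPKM. NOP58, a core box C/D protein, fell from 163 to 74.5 FPKM with DAC in siStau1. The shares called over all tested genes were 13.5% with DAC in siLuc and 7.46% with DAC in siStau1. The calls among these 14 genes are therefore a description too. Of 30 genes of RNA polymerase III and its factors 3 rose and 2 fell with DAC in siLuc, and 0 passed in the other comparisons. These 5 calls are also near the 13.5% called over all tested genes and are given gene by gene as a description. POLR3A, the largest subunit, rose from 10.1 to 24.1 FPKM, SNAPC4, a subunit of the complex that binds small nuclear RNA promoters, from 5.44 to 19.1 FPKM, and MAF1, a repressor of the polymerase, from 50.9 to 137 FPKM. POLR3G, a subunit with an alternative paralog, fell from 32.3 to 6.56 FPKM and GTF3A, the 5S RNA gene factor, from 87.3 to 40.2 FPKM. Of 15 genes of small RNA ends and decay, SSB, the La protein that binds the 3′ ends of polymerase III transcripts, fell with DAC from 68.3 to 17.2 FPKM in siLuc cells and from 121 to 37.5 in siStau1 cells. TRIM21, on this list although it is a ubiquitin ligase, rose from 16.6 to 48.7 FPKM with DAC in siStau1. The called genes in this and the preceding paragraph are those with a q-value under 0.05 in the authors' deposited table.

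**Figure D5:**
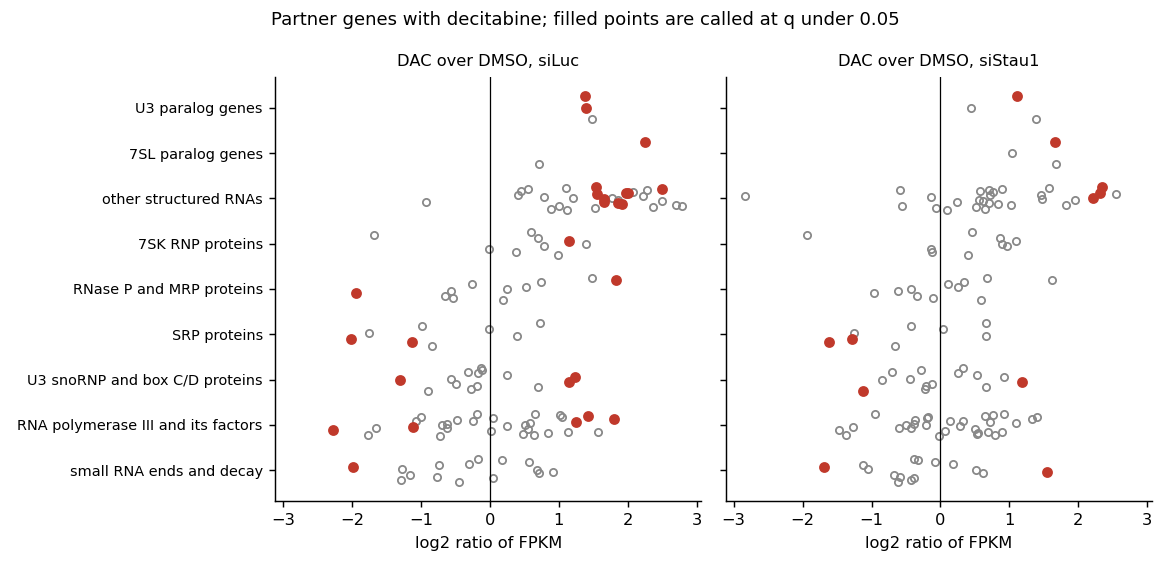
Log2 ratio of FPKM with DAC over DMSO (horizontal axis) for the genes of each list (vertical axis), in siLuc (left) and siStau1 (right), for tested genes at 1 FPKM or more in both groups; filled points are called in the authors' deposited table. Among other structured RNAs the filled points, 9 in siLuc and 3 in siStau1, are all above 0, while the protein lists have filled points on both sides.

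Genes that start within 1000 bases of a member were read for comparison. PARP2, a DNA repair enzyme that starts 175 bases from RPPH1 on the other strand, had 31.7, 24.7, 31.8 and 25.4 FPKM. AL355075.4, which holds RPPH1 whole, had 1561, 7092, 983 and 3584 FPKM, the same order of groups as RPPH1. CCDC107, which starts 273 bases from the RMRP ribozyme model on the other strand, had 5.90, 14.1, 3.62 and 8.62 FPKM. GSTA4, a glutathione transferase that starts 243 bases from RN7SK, had 2.07, 0.896, 2.21 and 0.890 FPKM. None of these 4 genes was called in the 4 comparisons in the authors' deposited table. RPS29, which overlaps RN7SL1 on the other strand, starts 204 bases from it, and AL139099.4 starts 1 base from it. AL627171.1 starts 223 bases from RN7SL2. All of these share the values at 0 described above. No gene met this rule for SNORD3A.

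The genes with the most similar profile were found among 5327 genes with at least 10 FPKM in all 4 groups, by the root mean square difference of centred log2 FPKM over the 4 groups. For SNORD3A they were DDX58 (0.045), RF00003 (0.097) and VAMP8 (0.10). For RPPH1 they were LY6E (0.033), JUNB (0.051) and FTL (0.064). For the RMRP ribozyme model they were SNORA67 (0.10), HES4 (0.12) and MT-ND2 (0.12), and for the lincRNA model RF00092 (0.062), PPP1R15A (0.087) and RNU1-2 (0.095). Each likeness rests on 4 values. For RN7SK, RN7SL1 and RN7SL2 the values at 0 set the profile, and no genes are given.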

How the data were processed

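Total RNA was measured in 8 libraries of HCT116 (4 groups of 2) and J2 RNA in 3. The authors deposited 1 FPKM per gene and group, with a p-value and q-value for each of 6 comparisons, in Cuffdiff's layout per the file headers. The submitters' processing notes name hg38, HISAT2 2.1.0, featureCounts, Cuffdiff 2.2.1, Cuffnorm 2.2.1, DESeq 1.36.0 and bcl2fastq 2.20, without their roles. The deposited q-value equals the Benjamini-Hochberg value over all 102180 tests, within 5.3e-07. Counts per library were not analysed here, so the planned edgeR test was replaced by the authors' calls. Members and lists were chosen with earlier results of these data known.

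Log2 ratios used a pseudocount of 0.1 FPKM. Fragment length is not given in the sources used here, and its bearing on the FPKM of RNAs of 217 to 333 bases was not tested. Group values of 1 gene, no member, differed between rows of the table. All 58699 gene identifiers matched GENCODE release 29, and the 6 members were matched by symbol. The sequences of the 7SL genes are not reported here. The named genes were the members, listed genes called in any of the 4 comparisons, genes starting within 1000 bases of a member, and the 3 most similar profiles. The marker genes are given whether called or not, and RN7SL4P, RN7SL5P and LRR1 were named after their values were seen. A list without a call in a comparison is given by its count. RNY5 and RO60 (2 listed symbols) were not found under these symbols.

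For J2 the authors deposited whole-number counts plus 1 for siLuc DMSO and, for the other libraries, a signal that is the count plus 1 multiplied by 1 factor, 1.92 in siLuc DAC and 1.27 in siStau1 DAC. Division by it gave whole reads for 100.0% of values (tolerance 0.01). In the 3 repeat tables, 3 further columns of single libraries repeat the values used and were not used. Python 3 with pandas, scipy and edlib was used, and the ratio, centring and adjustment steps were tested on simulated data.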

Additional observations from a re-analysis of the deposited data

How the results depend on the processing

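The number of members called was 0 in each of the 4 comparisons, also with the adjustment made within each comparison. The q-value limit of 0.01 is stricter, so its count of 0 was fixed in advance and is no check. A pseudocount of 0.01 or 1 cannot turn the direction of a ratio, since the same amount is added to both values. All 18 member ratios kept their direction with centring on all genes or on noncoding genes of 200 to 800 bases. SNORD3A with DAC in siLuc came to 0.018, from 0.37, when centred on those noncoding genes, turned to −0.30 with FPKM scaled to the same sum and to −0.031 within bins of GC content, and the other 17 ratios kept their direction under both. With overlapping models summed, an alternative chosen after seeing the data, the RMRP ribozyme ratio with the knockdown in DMSO turned to −0.090, because the lincRNA model is lower there. Over genes with at least 1 FPKM, the members' share of the FPKM sum was 35.6% with DMSO and 44.6% with DAC in siLuc cells, and 31.9% and 49.8% in siStau1 cells. With that minimum in both groups, 1 other structured RNA in place of 2 was called with the knockdown in DMSO, and 0 other cell type markers in place of 2 (PTPRC and COL1A1) with DAC in siStau1, since fewer genes were counted.

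For J2, the authors' values as they stand gave log2 ratios for 7SL and 7SK of 0.97 and 0.93 in siLuc DAC over siLuc DMSO, 0.30 and 0.37 in siStau1 DAC over siLuc DMSO (against −0.26 and −0.20), and −0.66 and −0.57 in siStau1 DAC over siLuc DAC. With repeats outside Alu as the total they were −0.24 and −0.28, −0.38 and −0.31, and −0.13 and −0.036. The sign of 4 of these 12 values turned. The reads on the copies were the same throughout, and only the factor or the total applied to them differed. Why these factors and totals differ between libraries was not tested.

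No paired analysis was possible because the deposited total RNA table holds 1 value per group and no value per library. For the same reason the fits with a replicate block and without single replicates were not run, and no spread between libraries is known. For J2, 1 library per group limits every comparison to counting error.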
